A study of Mus musculus with 15 samples.

Results

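Erythroid genes were followed across the femora of ground and spaceflight mice with and without a bone defect. The members were 9 genes, Hba-a1, Alas2, Slc4a1, Epb42, Klf1, Gata1, Tal1, Tfrc and Ermap, and they were taken as every probe whose accession maps to one of these symbols. They were read by 13 of the 55681 probes on the array, of which 28026 could be matched to one of 21154 gene symbols. Ermap and Tfrc had 3 probes each and the other 7 genes had 1 probe. RNA came from 15 male C57BL/6J mice, labelled as 9 weeks old, that belonged to 4 groups. G-Sham mice (4 arrays, replicates 1, 3, 4 and 5) stayed on the ground and had no operation, and FLT-Sham mice (4 arrays, replicates 4, 6, 8 and 9) had no operation and spent about a month in spaceflight. G-Surgery mice (4 arrays, replicates 1, 3, 4 and 5) and FLT-Surgery mice (3 arrays, replicates 1, 3 and 5) carried a segmental bone defect of the femur that held a graft on a pin with a saline-soaked collagen sponge, on the ground or in spaceflight. The tissue was labelled callus in all groups, and in the sham groups it was the matching stretch of intact femoral midshaft.

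Red cells are made in the bone marrow from progenitors that first switch on the transcription factors GATA1, TAL1 and KLF1. These factors drive the genes for hemoglobin, for the enzymes that make heme, for the transferrin receptor that brings in iron, and for the proteins of the red cell membrane. Nuclei are lost late in this course, while globin mRNA persists in reticulocytes, the youngest red cells of the blood. A long bone milled whole therefore carries RNA of the marrow and blood beside that of bone.

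Each array compared the sample, labelled with Cy5, with a commercial reference RNA from mouse cell lines, labelled with Cy3. A level is given below either as the Cy5 signal, in arbitrary units after background subtraction and dye normalization, or as the log2 ratio of sample over reference. A probe counts as measured on an array where its Cy5 signal was well above background, a flag that the scanner software sets. Signals of different probes are not compared with each other. Because the samples are bulk tissue, fewer cells of a type and less RNA per cell cannot be told apart.

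Between 22.4% and 38.5% of probes per array were well above background in Cy5, and no spot was saturated. The paper names sub-optimal RNA quality as a limit, so a signal not above background does not show that a gene was silent. Among the FLT-Sham arrays, 20864, 21461 and 19424 probes were above background on replicates 4, 6 and 9 and 14813 on replicate 8. The tissue carried markers of bone, muscle and marrow. Of 13 osteoblast and osteocyte markers, Col1a1, Col1a2, Spp1 and Bglap2 were above background on all 15 arrays, while Sp7, Phex, Dmp1 and Sost were so on none. Of 12 skeletal muscle markers, 9 were above background on all 15 arrays, and 5 of 13 neutrophil markers were. Between 15.9% and 32.3% of spots per array had a deposited log ratio of exactly 0, the value written when neither channel differed from background.

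RefSeq promoter windows (GRCm38.p6) were held for 8 of the 9 members, with 10 start sites. The promoters of Hba-a1, Alas2 and Gata1 are printed because these genes are a target of the erythroid factors, the first enzyme of heme synthesis and one of the factors itself, and because all 3 passed the cut-off used below in FLT-Surgery against FLT-Sham. Each line holds the 250 bases before the start site, 5′ to 3′ in the direction of the gene. Capitals mark GATAA, the core of sites bound by GATA factors, and CCACCC, a box of the kind bound by KLF1. On the other strand the former reads TTATC. The latter then reads GGGTGG.
Hba-a1, chr11:32283422-32283671, + strand: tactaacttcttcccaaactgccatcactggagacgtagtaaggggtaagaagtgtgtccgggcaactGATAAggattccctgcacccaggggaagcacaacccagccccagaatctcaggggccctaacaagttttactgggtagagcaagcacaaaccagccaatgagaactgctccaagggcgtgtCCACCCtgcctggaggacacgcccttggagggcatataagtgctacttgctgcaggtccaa
Alas2, chrX:150547167-150547416, + strand: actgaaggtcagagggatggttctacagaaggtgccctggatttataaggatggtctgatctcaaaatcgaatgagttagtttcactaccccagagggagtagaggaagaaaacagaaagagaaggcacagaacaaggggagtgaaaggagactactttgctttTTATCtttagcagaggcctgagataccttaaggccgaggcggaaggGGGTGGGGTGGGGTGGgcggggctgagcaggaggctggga
Gata1, chrX:7967911-7968160, - strand: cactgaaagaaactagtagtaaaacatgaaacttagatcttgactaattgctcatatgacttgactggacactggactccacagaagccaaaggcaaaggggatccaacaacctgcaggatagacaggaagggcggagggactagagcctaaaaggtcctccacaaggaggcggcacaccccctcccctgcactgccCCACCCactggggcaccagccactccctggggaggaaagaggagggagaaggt
Hba-a1 had 1 GATAA, which began 182 bases before the start, and 1 CCACCC at 61 bases. Alas2 had 1 GATAA on the other strand at 86 bases and 3 overlapping CCACCC on the other strand between 40 and 30 bases before the start. Gata1 had no GATAA in this window and 1 CCACCC at 53 bases. Over all members GATAA was found before 6 of 10 start sites and CCACCC before 5 of 10. Of 32841 RefSeq promoter windows of the same length, 22.6% held GATAA and 28.1% held CCACCC on either strand. The letters of both motifs can overlap by at most 1 base, and a match describes the letters only.

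Hba-a1 encodes an alpha chain of adult hemoglobin and was above background on all 15 arrays. Its Cy5 signal in G-Sham was 11900, 16700, 22400 and 22100 in replicates 1, 3, 4 and 5. In FLT-Sham it was 119000, 86500, 21600 and 86900 in replicates 4, 6, 8 and 9. After surgery it was 1370, 6380, 8380 and 8050 in replicates 1, 3, 4 and 5 of G-Surgery, and 16400, 2250 and 2960 in replicates 1, 3 and 5 of FLT-Surgery. FLT-Sham replicates 4, 6 and 9 were the highest of the 15 arrays, FLT-Sham replicate 8 lay within the range of G-Sham, and every G-Surgery array lay below every G-Sham array. As log2 ratio the mean was 6.42 ± 0.70 (SD, n = 4) in G-Sham, 7.44 ± 0.51 (n = 4) in FLT-Sham, 4.22 ± 1.40 (n = 4) in G-Surgery and 4.19 ± 1.89 (n = 3) in FLT-Surgery. The order of the groups was thus FLT-Sham, G-Sham, G-Surgery and FLT-Surgery, and the last pair did not differ beyond their spread. The Cy3 signal of the reference at this probe was 571, 479 and 376 in FLT-Sham replicates 4, 6 and 9, and ranged from 160 to 267 in G-Sham, so the ratio differed less between these groups than Cy5 did. Hba-a1 has a close copy, Hba-a2, and which of the copies the probe read is uncertain.

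**Figure D1:**
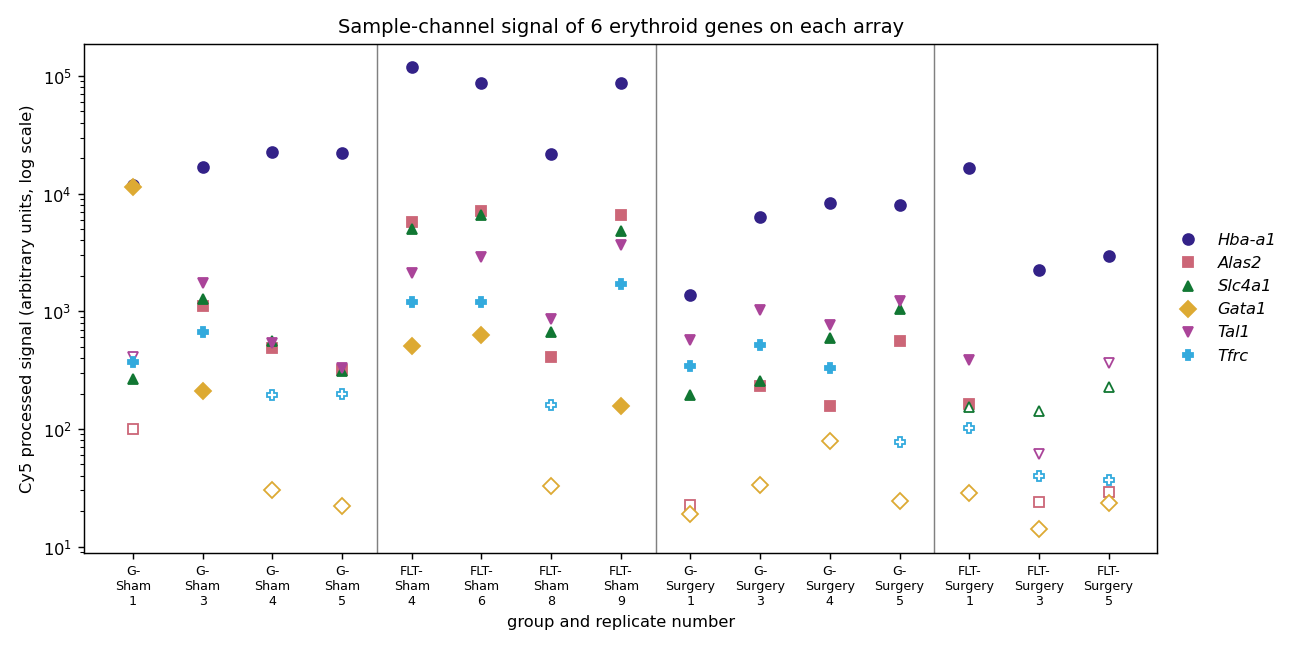
Cy5 processed signal (log scale, arbitrary units) of Hba-a1, Alas2, Slc4a1, Gata1, Tal1 and Tfrc at the brightest probe on each of the 15 arrays. Filled marks are well above background and open marks are not. FLT-Sham replicates 4, 6 and 9 hold the highest signal of Hba-a1, from 86500 to 119000, and FLT-Surgery replicates 3 and 5 hold low signals of most of these genes.

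Alas2 encodes the erythroid form of 5-aminolevulinate synthase, which starts heme synthesis, and it was above background on 11 of 15 arrays. In FLT-Sham its Cy5 signal was 5700, 7070, 405 and 6610 in replicates 4, 6, 8 and 9, against 99.8, 1100, 492 and 317 in replicates 1, 3, 4 and 5 of G-Sham. In G-Surgery it was 22.5, 233, 158 and 561 in replicates 1, 3, 4 and 5, and in FLT-Surgery 163, 24.1 and 28.9 in replicates 1, 3 and 5. The 3 high FLT-Sham arrays were those that were high for Hba-a1, and replicate 8 again lay among the G-Sham arrays. G-Sham replicate 1, G-Surgery replicate 1 and FLT-Surgery replicates 3 and 5 were not well above background. The Cy3 signal of the reference at this probe was above background on only 3 arrays, FLT-Sham replicates 4, 6 and 9. The mean log2 ratio was 4.58 ± 2.11 (SD, n = 4) in G-Sham, 6.79 ± 1.57 (n = 4) in FLT-Sham, 3.33 ± 1.99 (n = 4) in G-Surgery and 0.92 ± 2.81 (n = 3) in FLT-Surgery, and neighbours in this order overlapped.

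Slc4a1 encodes band 3, the anion exchanger of the red cell membrane, and Epb42 encodes protein 4.2, which binds band 3 to the membrane skeleton. The Cy5 signal of Slc4a1 was 268, 1280, 560 and 308 in replicates 1, 3, 4 and 5 of G-Sham and 4960, 6530, 665 and 4830 in replicates 4, 6, 8 and 9 of FLT-Sham. In G-Surgery it was 196, 256, 594 and 1050 in replicates 1, 3, 4 and 5, and in FLT-Surgery it was 154, 142 and 228 in replicates 1, 3 and 5. All 12 arrays of the other 3 groups were above background and none of the 3 FLT-Surgery arrays was. Its mean log2 ratio was 3.38 ± 1.24 (SD, n = 4) in G-Sham, 6.14 ± 1.53 (n = 4) in FLT-Sham, 2.89 ± 1.21 (n = 4) in G-Surgery and 1.39 ± 0.14 (n = 3) in FLT-Surgery, with G-Sham and G-Surgery overlapping. Epb42 was not above background on any of the 15 arrays in either channel, so it has no measured level here.

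Gata1, Tal1 and Klf1 encode the DNA-binding factors of the erythroid program. Gata1 was above background on 5 arrays. Its Cy5 signal was 503, 623 and 156 in FLT-Sham replicates 4, 6 and 9 and 32.7 in replicate 8. In G-Sham it was 11400, 209, 30.5 and 22.1 in replicates 1, 3, 4 and 5, and from 14.0 to 78.5 on the 7 surgery arrays, none of them above background. A single spot reads this gene, so the 11400 of G-Sham replicate 1 rests on 1 spot, and the Cy5 signals of Hba-a1, Alas2 and Slc4a1 on that array were the lowest of the G-Sham arrays. Tal1 was above background on 12 arrays. Its Cy5 signal was 406, 1740, 535 and 327 in replicates 1, 3, 4 and 5 of G-Sham and 2120, 2900, 859 and 3660 in replicates 4, 6, 8 and 9 of FLT-Sham. It was 569, 1030, 771 and 1220 in replicates 1, 3, 4 and 5 of G-Surgery and 385, 61.7 and 364 in replicates 1, 3 and 5 of FLT-Surgery. All 4 G-Surgery arrays lay above all 3 FLT-Surgery arrays for Tal1, and the FLT-Sham replicates 4, 6 and 9 were again the highest of all. The mean log2 ratio of Tal1 was 0.90 ± 1.31 (SD, n = 4) in G-Sham, 2.61 ± 0.90 (n = 4) in FLT-Sham, 1.38 ± 0.56 (n = 4) in G-Surgery and -1.05 ± 1.86 (n = 3) in FLT-Surgery. Klf1 was not above background in Cy5 on any array, at 20.9 to 78.4, while its Cy3 signal of the reference was above background on 13 arrays.

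**Figure D2:**
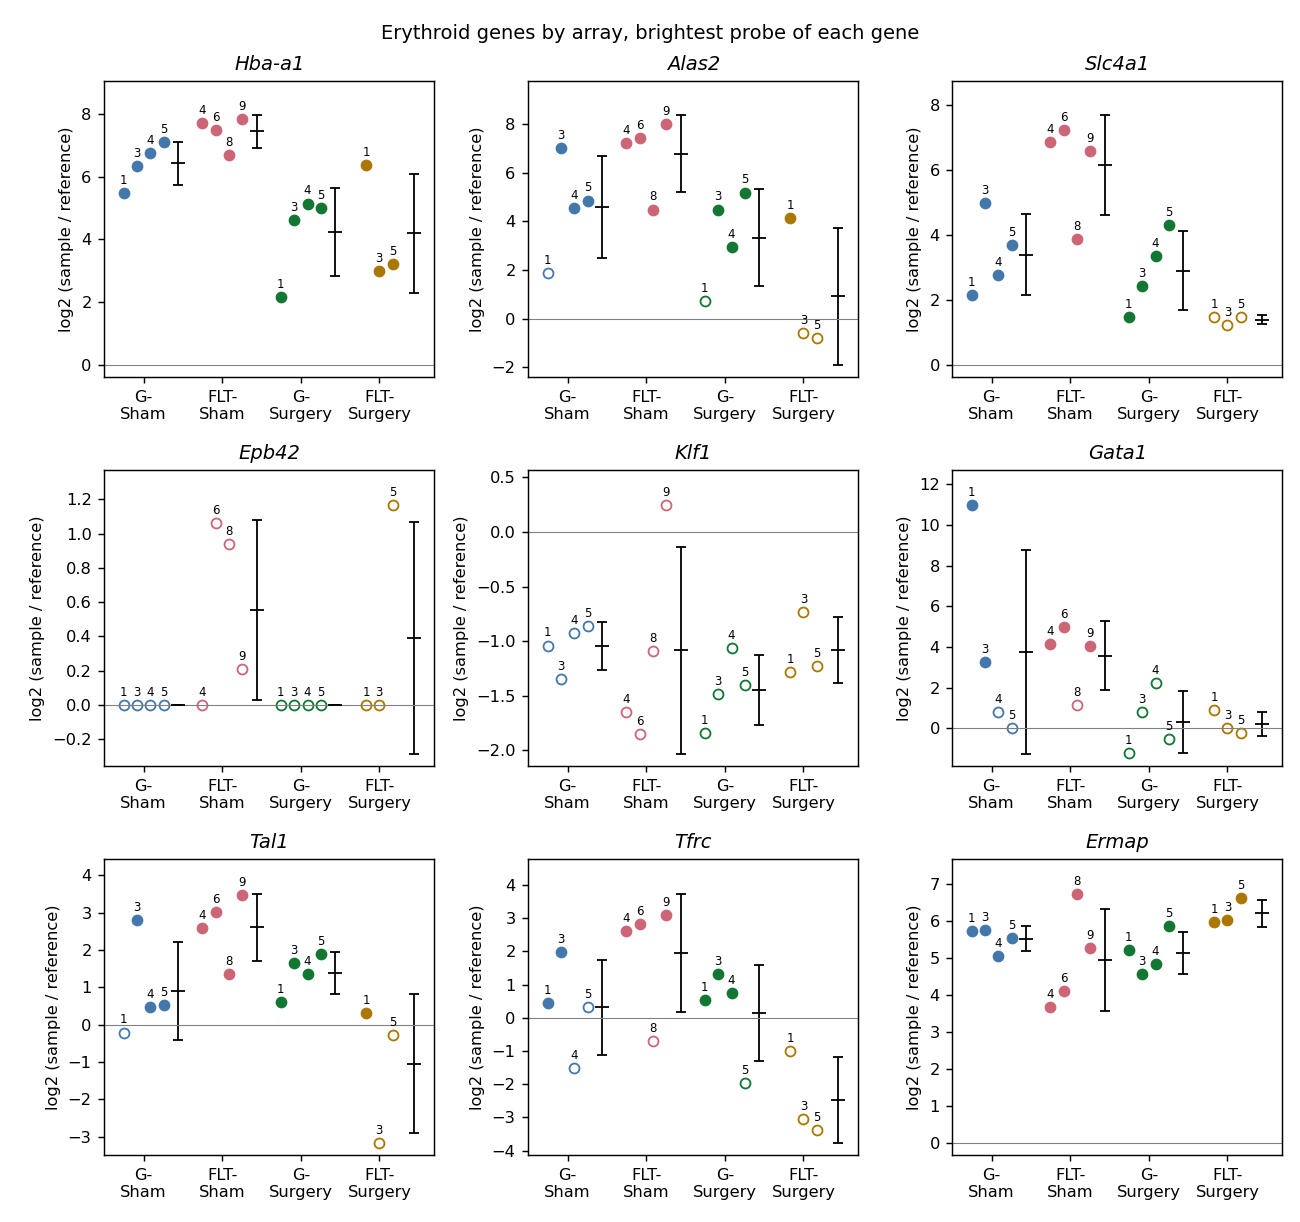
Log2 ratio of sample over reference at the brightest probe of each of the 9 erythroid genes, with each array as a point labelled by its replicate number. Filled points are well above background in Cy5 and open points are not, and the bars to the right of each group show the mean ± SD (n = 4, and 3 for FLT-Surgery). Hba-a1, Alas2 and Slc4a1 are highest on FLT-Sham replicates 4, 6 and 9, and Epb42 and Klf1 are open throughout.

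Tfrc encodes the transferrin receptor, through which erythroid precursors and other dividing cells take up iron, and its 3 probes did not give the same picture. The brightest probe was above background on 8 arrays. Its Cy5 signal was 371, 665, 196 and 198 in replicates 1, 3, 4 and 5 of G-Sham and 1210, 1190, 160 and 1720 in replicates 4, 6, 8 and 9 of FLT-Sham. It was 341, 518, 332 and 77.5 in replicates 1, 3, 4 and 5 of G-Surgery and 101, 40.0 and 37.1 in replicates 1, 3 and 5 of FLT-Surgery, where no array was above background. The same 3 FLT-Sham arrays were the highest of the 15. The probe printed as 10 spots was above background only in FLT-Sham replicates 4 and 6, at 384 and 506, and otherwise lay between 35.9 and 139. At this probe the reference gave 904 to 1830, so log2 ratios were below 0 on all arrays. The remaining probe was above background only in FLT-Surgery replicate 1, at 775, and between 17.2 and 34.9 on the others.

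Ermap encodes an erythroid membrane protein of the immunoglobulin family that carries the Scianna blood group. Its brightest probe was above background on all 15 arrays, and it did not follow the other members. The Cy5 signal was 20100, 15200, 21600 and 9590 in replicates 1, 3, 4 and 5 of G-Sham and 6120, 8700, 35700 and 17500 in replicates 4, 6, 8 and 9 of FLT-Sham. It was 10200, 6510, 8480 and 17900 in replicates 1, 3, 4 and 5 of G-Surgery and 20100, 20000 and 43900 in replicates 1, 3 and 5 of FLT-Surgery. As log2 ratio, FLT-Sham replicates 4 and 6 were the lowest of the 15 arrays, at 3.68 and 4.10, and FLT-Sham replicate 8 the highest, at 6.74. The mean log2 ratio was 5.53 ± 0.33 (SD, n = 4) in G-Sham, 4.94 ± 1.37 (n = 4) in FLT-Sham, 5.12 ± 0.57 (n = 4) in G-Surgery and 6.21 ± 0.36 (n = 3) in FLT-Surgery. The 3 FLT-Surgery arrays, from 5.98 to 6.63, lay above all G-Surgery and G-Sham arrays, and FLT-Sham overlapped with each of the other groups. A second probe of Ermap was above background in G-Sham replicate 3 at 138, in FLT-Sham replicates 4, 6 and 9 at 362, 506 and 424, and in FLT-Surgery replicate 1 at 565. On the other 10 arrays it lay between 12.7 and 58.5. Apart from FLT-Surgery replicate 1, this probe was thus high on the arrays that were high for Alas2 and Slc4a1, while the brightest probe was low on 2 of them. The third probe of Ermap was not above background on any array. The probes cannot be placed on the transcripts of the gene here, and why they differ was not tested.

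**Figure D3:**
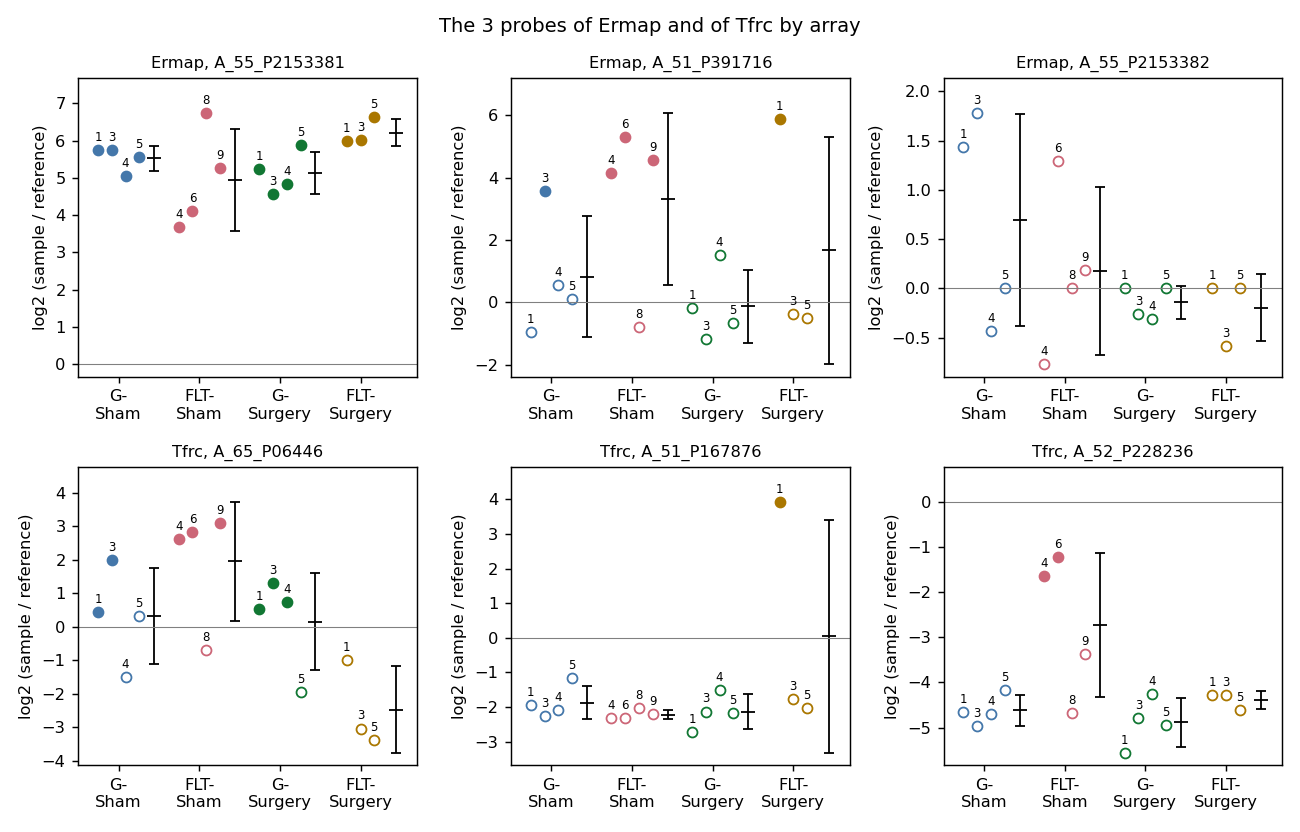
Log2 ratio of sample over reference for the 3 probes of Ermap (upper row) and of Tfrc (lower row), with each array as a point labelled by its replicate number. Filled points are well above background in Cy5, and bars show the mean ± SD per group (n = 4, and 3 for FLT-Surgery). The brightest Ermap probe is above background on all 15 arrays with its lowest ratios in FLT-Sham replicates 4 and 6, where the middle Ermap probe is high.

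The first comparison asked what spaceflight changed in intact bone. In FLT-Sham against G-Sham, 7 members could be tested and none passed the cut-off of the study, a fold change of at least 2 at an unadjusted p of at most 0.01. Of all 16252 genes tested, 2.4% passed it, 2.15% higher and 0.252% lower. Slc4a1 was higher by 2.75 on the log2 scale (SE 0.860, limma adjusted p = 0.491), and Alas2 by 2.21 (SE 1.123, adjusted p = 0.522). The differences were 1.02 for Hba-a1 (SE 0.443, adjusted p = 0.514), 1.72 for Tal1 (SE 0.710, adjusted p = 0.514) and 1.65 for Tfrc (SE 0.983, adjusted p = 0.531). They were -0.19 for Gata1 (adjusted p = 0.968) and -0.58 for the brightest Ermap probe (adjusted p = 0.644), while the second Ermap probe differed by 2.48 (adjusted p = 0.527). The median over the 7 members was 1.65, beside 0.219 over all genes tested. The groups overlapped for each of these members. Here and below, overlap of groups was not counted over all genes tested, so it describes these members only. Without FLT-Sham replicate 8, 3 members passed, Slc4a1 at 3.51, Tfrc at 2.53 and Ermap at a probe other than its brightest, and 1978 of all genes passed in place of 390. Without G-Sham replicate 3, 2 members passed, Slc4a1 at 3.29 and Tal1 at 2.35, beside 399 of 15853 genes.

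Between the surgery groups 6 members could be tested, of which Slc4a1 and Tfrc were above background in G-Surgery only. In FLT-Surgery against G-Surgery none of the 6 passed the cut-off, which 3.66% of all 13922 genes tested passed, 1.2% higher and 2.46% lower. Tal1 differed by -2.42 on the log2 scale (SE 0.811, limma adjusted p = 0.280). Slc4a1 and Tfrc were above background on no FLT-Surgery array and have only a bound, at least 2.63-fold lower for Slc4a1 (fitted difference -1.50, adjusted p = 0.299) and at least 2.36-fold lower for Tfrc (fitted difference -2.63, adjusted p = 0.280). Alas2 differed by -2.41 (SE 1.473, adjusted p = 0.416) and Hba-a1 by -0.03 (SE 1.023, adjusted p = 0.991). The brightest Ermap probe differed by 1.09 (SE 0.380, adjusted p = 0.280). The 3 FLT-Surgery arrays lay below the 4 G-Surgery arrays for Tal1 and above them for Ermap, and the groups overlapped for Alas2, Hba-a1 and Tfrc. For Slc4a1 the Cy5 signal was 228 in FLT-Surgery replicate 5, not above background, and 196 in G-Surgery replicate 1. No order is therefore given for Slc4a1. Of the 4 members above background in both groups, 3 lay below 0. For Hba-a1, FLT-Surgery replicate 1 lay above all G-Surgery arrays, while replicates 3 and 5 lay within their range. Without FLT-Surgery replicate 1, 2 members passed, both lower, beside 1952 of all 13595 genes, where 509 had passed with all arrays. Without G-Surgery replicate 5, 1 passed higher and 1 lower, beside 700 of 13332 genes. Leaving out G-Surgery replicate 1, 1 passed lower, beside 342 of 12763 genes. The difference of Hba-a1 kept its sign in 11 of 21 alternatives and has no direction here.

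Surgery on the ground was compared next. In G-Surgery against G-Sham none of the 6 members tested passed the cut-off, beside 3.05% of 14767 genes, 2.46% higher and 0.596% lower. Hba-a1 differed most, by -2.20 on the log2 scale (SE 0.684, limma adjusted p = 0.354), with all 4 G-Surgery arrays below all 4 G-Sham arrays. Its difference ranged from -2.51 to -1.51 over all alternatives and passed the cut-off in 10 of 22 of them. Alas2 differed by -1.25 (adjusted p = 0.708), Slc4a1 by -0.50 (adjusted p = 0.81), Ermap by -0.40 (adjusted p = 0.672), Tfrc by -0.16 (adjusted p = 0.951) and Tal1 by 0.48 (adjusted p = 0.780). Gata1 was above background in 2 of 4 G-Sham arrays and in no G-Surgery array, and was not tested.

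Most calls among the members lay between the 2 spaceflight groups. In FLT-Surgery against FLT-Sham 6 of the 7 members tested passed the cut-off, all lower, beside 7.68% of all 15827 genes, 0.499% higher and 7.2% lower. Of the 6, Slc4a1, Tfrc and Gata1 were above background on no FLT-Surgery array. They entered the test through FLT-Sham only, so a lower value was fixed by entry and they have only a bound. Of the other 3, Hba-a1 was above background on all FLT-Surgery arrays, and Alas2 and Tal1 on replicate 1 only. Alas2 fell by 5.88 on the log2 scale (SE 1.355, limma adjusted p = 0.136). On FLT-Surgery replicates 3 and 5 neither of its channels was above background, so the size of this fall is uncertain. Tal1 fell by 3.66 (adjusted p = 0.136) and Hba-a1 fell by 3.25 (adjusted p = 0.141). Slc4a1 was at least 16.3-fold lower (fitted difference -4.75, adjusted p = 0.0856) and Tfrc at least 6-fold (fitted difference -4.44, adjusted p = 0.136). Gata1 was at least 1.82-fold lower (fitted difference -3.35, adjusted p = 0.144), so its bound does not reach the 2-fold of the cut-off. For Alas2, Tal1, Hba-a1 and Slc4a1 every FLT-Surgery array lay below every FLT-Sham array, while for Gata1 and Tfrc FLT-Sham replicate 8 was not above background either and has no order against FLT-Surgery. The share of all genes with such an order was not counted, so whether it is unusual cannot be said. The brightest Ermap probe differed by 1.26 (SE 0.733, adjusted p = 0.290) in the other direction and the second Ermap probe by -1.64 (adjusted p = 0.577). No member reached a limma adjusted p of 0.05 in this fit, which 16 probes of the whole array did. With all 15 arrays in the fit 5 member probes did, beside 870 of all, and with array weights 8, beside 11667. Without FLT-Sham replicate 8 it was 7, beside 6141, and without FLT-Surgery replicate 1 it was 3, beside 773. In the other alternatives no member probe did. With no filter on dim probes 3 members passed, beside 1255 of 36799 genes, and 1 passed where both dyes had to exceed background on all arrays, beside 564 of 8142. Leaving out an array moved the count of 6 to 3 without FLT-Sham replicate 4 or 6, to 2 without FLT-Sham replicate 9 or FLT-Surgery replicate 3 or 5. In these fits 290 to 454 of all genes passed in place of 1216. Without FLT-Sham replicate 8, 6 passed lower and 1 higher, beside 4453 of 15514 genes. Slc4a1 passed in all 19 alternatives that could test it, which adds no support, as no FLT-Surgery array was above background for it. With slide as a block 2 members passed, beside 541 of 15827 genes. Within slide 1, which held 2 FLT-Surgery arrays and 1 FLT-Sham array, Hba-a1 differed by -4.60 and Alas2 by -7.94, and within slide 2, with 1 and 3 arrays, by -0.99 and -2.49. Slc4a1 differed by -5.51 and -4.43 within the same slides.

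**Figure D4:**
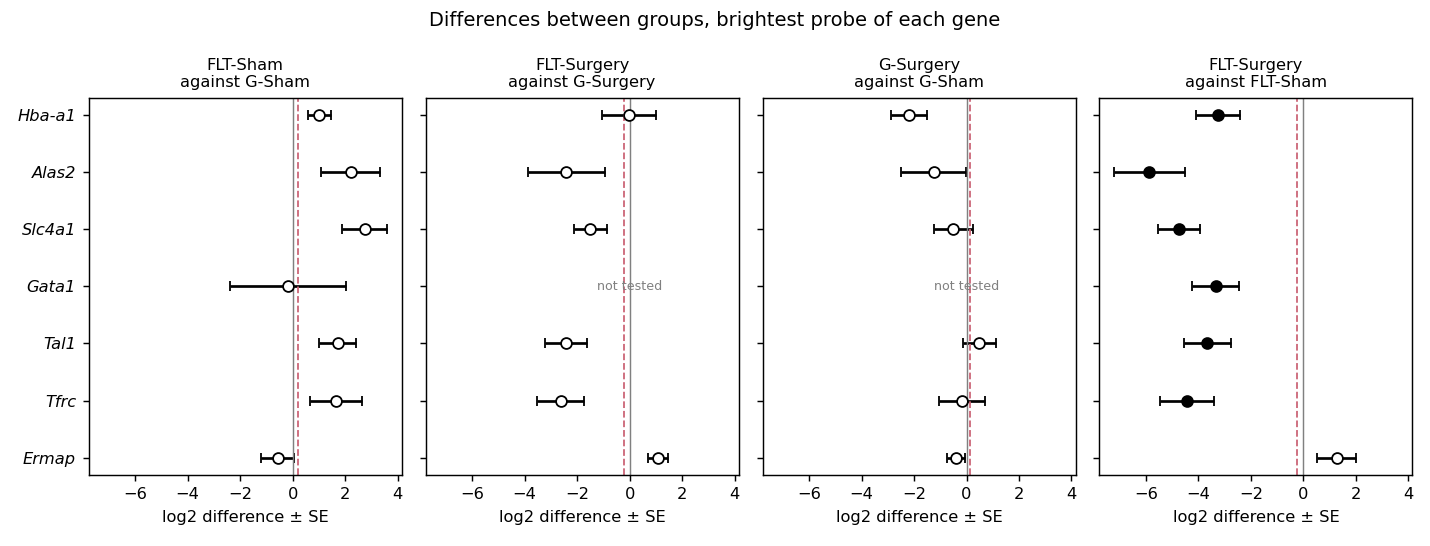
Log2 difference ± SE (limma) between groups for the brightest probe of the 7 members that could be tested, in each of the 4 comparisons. Filled points passed a fold change of at least 2 at an unadjusted p of at most 0.01, and the dashed line is the median over all genes tested. Only FLT-Surgery against FLT-Sham has filled points, 6 of them, all to the left of 0, and of these Slc4a1, Tfrc and Gata1 were above background on no FLT-Surgery array.

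Whether the effect of spaceflight differed between surgery and sham mice was tested in 1 fit over all 15 arrays, as FLT-Surgery minus G-Surgery less FLT-Sham minus G-Sham. Slc4a1 (-4.25, SE 1.166, limma adjusted p = 0.171) and Tal1 (-4.14, SE 1.143, adjusted p = 0.171) had an unadjusted p of at most 0.01, as 6.36% of all 17697 genes did. Tfrc had -4.28 (adjusted p = 0.188), Alas2 -4.63 (adjusted p = 0.23), Ermap 1.67 (adjusted p = 0.269), Hba-a1 -1.05 (adjusted p = 0.606) and Gata1 0.09 (adjusted p = 0.988). Without FLT-Sham replicate 8 or FLT-Surgery replicate 1 the count was 4 in place of 2, with 1 of the 4 above 0 in the former case. Over all genes the count was then 3538 of 17578 and 2128 of 17628, in place of 1126. This contrast and the pairwise comparisons share their arrays, so the values are not independent of those above. No probe of the array reached an adjusted p of 0.05 in this contrast, and Slc4a1 was above background on no FLT-Surgery array.

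Lists of other erythroid genes were described by counts, with a gene read at its brightest probe. A gene above background in only 1 of the 2 groups compared could enter the test only if it was high there, so its direction was fixed by entry, and signs and medians are given over the genes above background in both groups. Of the globins and their chaperone, 10 of 12 had a probe. Hbb-b1, the beta globin whose signal was above background on 7 arrays, was above background in neither surgery group and passed the cut-off lower in FLT-Surgery against FLT-Sham, at least 9.78-fold (fitted difference -5.55, limma adjusted p = 0.132), and in G-Surgery against G-Sham, at least 2.25-fold (fitted difference -2.61, adjusted p = 0.346). Hba-a2 and Hbb-bt were above background on all 15 arrays and differed less. Of the 5 genes of this list tested in FLT-Sham against G-Sham, 2 lay above 0 and 3 below, with a median of -0.209, and none passed. The 3 above background in both groups of FLT-Surgery against FLT-Sham all lay below 0, with a median of -2.02. In FLT-Sham against G-Sham the log2 ratio of Hba-a2 differed by -0.32 (adjusted p = 0.707), although its Cy5 signal was 3270000, 2140000, 1580000 and 3240000 in FLT-Sham and 989000, 1230000, 672000 and 506000 in G-Sham. Cy5 and the ratio thus gave opposite directions for Hba-a2 between these groups, and the cause was not tested. Beta globin genes of 1 cluster are alike in sequence, and which copy a probe read is uncertain.

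Of 12 heme synthesis genes 11 could be tested in the spaceflight groups. In FLT-Surgery against FLT-Sham 4 of the 11 were above background in FLT-Sham only, and all 7 others lay below 0 with a median of -0.546. The median over all genes tested, -0.249, also covers genes above background in 1 group only, so the 2 medians are of unlike sets. Of the 5 that passed the cut-off, all lower, Urod, an enzyme of the middle steps of the pathway, fell by 1.70 (limma adjusted p = 0.149) and Tspo2, an erythroid membrane protein, by 2.39 (adjusted p = 0.136). The other 3 have only a bound. Abcb10 and Abcb6, transporters of the heme pathway, were at least 6.32-fold and 6.76-fold lower (adjusted p = 0.0782 and 0.101), and Uros, another enzyme of the middle steps, at least 6.3-fold (adjusted p = 0.136). Fech, which puts iron into the ring, differed by -1.24 (adjusted p = 0.157). In FLT-Sham against G-Sham 8 of the 10 above background in both groups lay above 0 with a median of 0.691, and none of the 11 passed. In FLT-Surgery against G-Surgery 6 of 7 lay below 0 with a median of -0.472 and none passed.

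Of 20 red cell membrane genes 13 could be tested between the spaceflight groups, and 6 of these were above background on no FLT-Surgery array. The 7 others all lay below 0 in FLT-Surgery against FLT-Sham, with a median of -2.37. Of these, 5 fell past the cut-off, with differences of -4.55 for Tspan33, -4.33 for Slc2a4, -3.88 for Ank1, -2.37 for Gypc and -1.74 for Epb41. Their limma adjusted p lay between 0.0856 for Tspan33 and 0.146 for Gypc. Kel, Add2 and Cd59a also passed and have only a bound, at least 3.06-fold lower for Kel, 3.16-fold for Add2 and 3.45-fold for Cd59a. Ank1 encodes ankyrin, Epb41 protein 4.1 and Add2 beta-adducin of the membrane skeleton, while Slc2a4 encodes a glucose transporter best known from muscle and fat. In FLT-Sham against G-Sham the same 6 genes were above background on no G-Sham array, and the 7 others lay above 0 with a median of 1.22 and none passed. Kel and Rhd, which encode the Kell and Rhesus blood group proteins, passed the cut-off as fitted (adjusted p = 0.448 and 0.450). Both were above background only in FLT-Sham replicates 4, 6 and 9, and their bounds were at least 3.15-fold higher for Kel and at least 1.92-fold for Rhd, the latter under the 2-fold of the cut-off.

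Of 18 further erythroid transcription factors 15 were tested in FLT-Surgery against FLT-Sham and 6 were above background in FLT-Sham only. Of the 9 others 7 lay below 0, with a median of -0.517. Gfi1b, a repressor needed in red cell and platelet precursors, passed the cut-off and was at least 5.33-fold lower (limma adjusted p = 0.130). Nfe2, a factor of globin genes and platelets, did not pass, with a bound of at least 3.11-fold (adjusted p = 0.158). Lmo2, a bridging partner of TAL1 and GATA1, fell by 1.88 in FLT-Surgery against G-Surgery (adjusted p = 0.280) and rose by 1.61 in G-Surgery against G-Sham (adjusted p = 0.297). Among 16 iron genes with a probe, Slc25a37, the mitoferrin that carries iron into mitochondria, fell by 3.32 in FLT-Surgery against FLT-Sham (adjusted p = 0.0736) and by 1.81 in FLT-Surgery against G-Surgery (adjusted p = 0.258). Of the 10 iron genes above background in both groups of the former comparison 7 lay below 0, with a median of -0.643. Of 22 late enzymes and clearance genes 13 were above background in both groups there, 5 lay below 0 and 8 above, with a median of 0.186, and Ube2o, a ubiquitin-conjugating enzyme of late red cell precursors, fell past the cut-off by 2.35 (adjusted p = 0.136). Car2, a carbonic anhydrase, and Epor, the erythropoietin receptor, were above background on no FLT-Surgery array and did not pass, with bounds of at least 6.44-fold (adjusted p = 0.158) and 3.56-fold (adjusted p = 0.159).

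Markers of other cell types moved on the same arrays as the erythroid genes. Among 13 neutrophil markers the summed Cy5 signal was 149000 to 396000 in FLT-Sham and 81200 to 206000 in G-Sham. It was 54800 to 142000 in G-Surgery and 16200 to 110000 in FLT-Surgery. In FLT-Surgery against FLT-Sham 7 of the 8 above background in both groups lay below 0 with a median of -3.44, and 4 of them fell past the cut-off, among them Mpo by 4.81 (limma adjusted p = 0.0397). Each of the 13 was above background on at least 1 array. Of the 11 skeletal muscle markers above background in both groups 10 lay below 0 in that comparison with a median of -3.34, and their summed Cy5 signal was 1370000 to 13300000 in FLT-Sham and 244000 to 2510000 in FLT-Surgery. In FLT-Surgery against G-Surgery all 11 muscle markers tested lay below 0 with a median of -2.04, and Myh2, a fast myosin, fell past the cut-off by 5.48 (limma adjusted p = 0.208). Of the 7 endothelial markers above background in both groups in FLT-Sham against G-Sham 5 lay above 0 with a median of 1.89 and none passed. Of 12 proliferation genes 6 lay above and 6 below 0 in FLT-Surgery against FLT-Sham, with a median of 0.108, and Mki67, a marker of dividing cells, fell past the cut-off at both of its probes, by 2.09 (limma adjusted p = 0.121) at the brighter one. Of the mast cell markers Cpa3, Cma1, Ms4a2, Fcer1a and Mrgprb1 were not above background on any array. The part of these cell types in the erythroid differences was not tested.

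**Figure D5:**
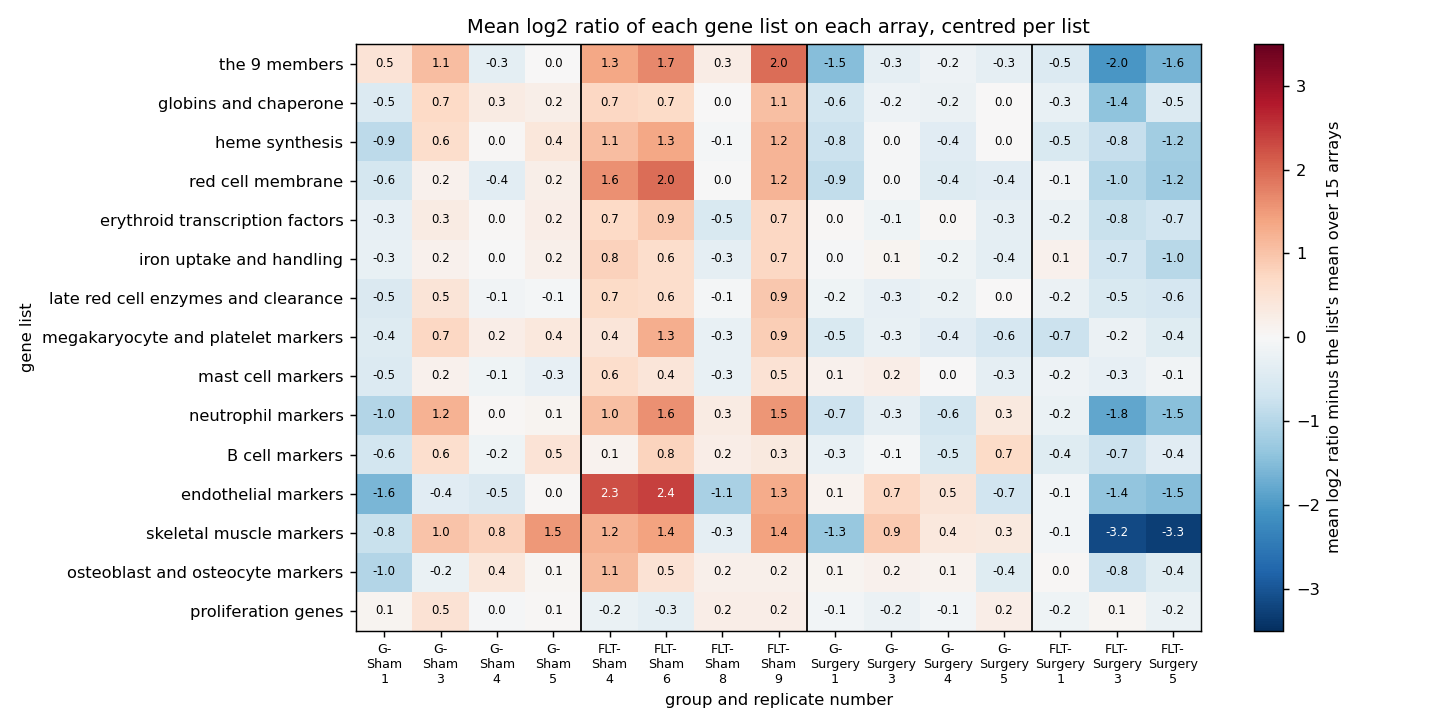
Mean log2 ratio of each gene list on each array (columns, by group and replicate number) minus the list's mean over the 15 arrays, in colour and digits. The erythroid lists and the neutrophil, endothelial and skeletal muscle markers are high on FLT-Sham replicates 4, 6 and 9 and low on FLT-Surgery replicates 3 and 5, and the proliferation genes stay between -0.34 and 0.50.

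The genes whose pattern was most like that of the members were searched among 5100 probes detected on all 15 arrays. The measure was Pearson's r over the 15 arrays with the mean standardized log2 ratio of the 6 members detected on at least 8 arrays. Among the 6 was the brightest Ermap probe, whose r to each of the others was negative, from -0.696 to -0.35. The arrays share the reference RNA and the normalization, so r is a description. The 10 most alike were Epb41 (r = 0.964), Ube2o (0.963), Fech (0.924), Camp (0.915), Cryab (0.909), Cox7a1 (0.906), H2bc1 (0.905), Abtb1 (0.903), Spsb3 (0.901) and Hsph1 (0.901). Epb41, Ube2o and Fech belong to the erythroid lists above and Camp to the neutrophil markers.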

How the data were processed

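Total RNA of 15 femoral samples (TRIzol and miRNeasy) was hybridised to 2-colour Agilent mouse arrays, sample in Cy5 and Universal Mouse Reference RNA in Cy3, with no dye swap. The authors extracted spots with Agilent Feature Extraction 12.0 (per the labels) and deposited processed signal intensity per channel, after background subtraction and dye normalization, and a log10 ratio of Cy5 over Cy3. The series table, which the authors deposited as well, held the same log10 ratios within 0.005. Per the labels the replicates are separate samples. Array number, signal over background and RNA quality limit the precision. The paper reports RNA of sub-optimal quality, comparable between spaceflight and ground, and names a freeze-thaw cycle as a possible reason.

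The deposited log10 ratio was turned to log2 and spots of a probe were averaged, leaving out outlier-flagged spots. Genes were named through accessions in RefSeq (GRCm38.p6). Pairs of groups were compared with limma 3.58.1 in R 4.3.3 over probes whose Cy5 was well above background on 3 or more arrays of the pair. The cut-off, after the study's methods, was a 2-fold change with p no larger than 0.01 before adjustment. Adjusted p are Benjamini-Hochberg values over all probes tested. A probe above background on no array of a group has only a bound, the bright group's mean Cy5 after Aquantile normalization over, per array, the higher of the lowest signal well above background and the probe's own, and without dye swaps it is open to dye bias. The script was tested on simulated data. Members, gene lists and the rule for named genes (all members, list genes past the cut-off, the 10 probes most like the members) were chosen with earlier results of these data known; other list genes named were picked after their values were seen. Alternatives covered background correction, normalization, the filter, slide, array weights and each array left out. Some genes of the lists are not reported here.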

Additional observations from a re-analysis of the deposited data

Results flagged for a closer look

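At the brightest Tfrc probe the log2 ratio of FLT-Sham replicate 8 was -0.69, while the other 3 FLT-Sham arrays lay between 2.61 and 3.09, a gap that Dixon's criterion marks at the 95% level. Chance marks about 1 in 20 groups. The difference between the effect of spaceflight in surgery and in sham mice had an unadjusted p of at most 0.01 for Slc4a1 (log2 difference of the effects -4.25, limma adjusted p = 0.171) and for Tal1 (-4.14, adjusted p = 0.171), and neither passed after adjustment over all probes. Slc4a1 was above background on no FLT-Surgery array. Both values rest in part on FLT-Sham replicates 4, 6 and 9, which were the highest arrays for these genes in Cy5.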

How the results depend on the processing

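Of 518 member differences recomputed under alternatives, 441 kept their direction and side of the cut-off, 32 newly passed it, 25 no longer passed it and 20 changed sign. For FLT-Sham against G-Sham (0 members) 1 passed with a second loess, median centring, Cy5 alone at the 75th percentile and all 15 arrays in the fit, 4 passed with array weights, and 0 to 3 with 1 array left out. For FLT-Surgery against G-Surgery (0) 1 passed higher with Cy5 alone at the 75th percentile (0 with quantile normalization), 1 lower with slide as a block, 2 lower with array weights, and 0 to 2 with 1 array left out. For G-Surgery against G-Sham (0) 1 passed with normexp and loess, median centring, Cy5 alone under either scaling, probes above background in both channels, and centring on such probes (chosen after seeing the data), and 0 to 1 with 1 array left out. For FLT-Surgery against FLT-Sham (6) 3 passed with no filter, 1 with probes above background in both channels and 2 with slide as a block, and 2 to 7 with 1 array left out (the 7 with 1 higher). For the interaction (2) 1 passed with a second loess, 0 with both channels above background and 5 with array weights, and 2 to 4 with 1 array left out. The causes were not tested.

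Gata1 in FLT-Sham against G-Sham was 0.80 with normexp and 2.05 with array weights, and -1.45 to 2.22 with 1 array left out. Hba-a1 in FLT-Surgery against G-Surgery was 0.63 with a second loess, 0.23 and 0.12 with Cy5 alone, 0.14 with the added centring, and -1.12 to 0.57 with 1 array left out. In G-Surgery against G-Sham Tal1 was -0.055 with normexp and -0.094 with slide as a block, Tfrc was 0.10 with array weights and -0.77 to 0.55 with 1 array left out, and Slc4a1 was -0.97 to 0.035.

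Replicate numbers are shared by different mice and do not pair them (r from -0.287 to 0.279). With replicate as a block Hba-a1 was 0.27 in FLT-Surgery against G-Surgery, 0 members passed there and 1 in G-Surgery against G-Sham, and genes passing went from 509 to 213 and from 451 to 381.

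Among all genes past the cut-off, the share higher depended on the scaling. In the order of the report's 4 comparisons and the interaction it was 89.5%, 32.7%, 80.5%, 6.48% and 6.65%, against 65%, 94.7%, 57.6%, 52.2% and 74% with a second loess, 28.1%, 84%, 39.9%, 33.2% and 65.2% with normexp, and 72.8%, 76.1%, 56%, 23.8% and 36.6% with Cy5 alone at the 75th percentile. The second loess moved the median of all genes from -0.249 to 0.369 in FLT-Surgery against FLT-Sham. With array weights 4342 genes passed in FLT-Sham against G-Sham in place of 390, and 5836 in the interaction in place of 1126. In FLT-Surgery against G-Surgery 1940 passed with array weights and 1245 with slide as a block, in place of 509. With some arrays left out Tfrc and Gata1 were above background on too few arrays to test.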
